A study of Mus musculus with 22 samples.

Results

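The genes described here encode the machinery that carries the signal of the T cell receptor: the CD3 chains and the CD4 coreceptor, the kinases and adaptors next to the receptor, the branches below them, and the inhibitors that restrain them. They are 33 genes listed by name, each matched to 1 Ensembl identifier, of 49671 genes in the deposited count table, and the list names genes by their role with no cut on a measured value. The cells were mouse TH2 cells, T helper cells polarized for 5 days, of wild-type genotype (WT). They came from Balb/c mice, male and female, that were obtained at 6 to 8 weeks of age and bred on feed with 400, 1000 or 4000 IU of vitamin D3 per kg. In 11 libraries the cells had received 100 nM calcitriol, the active hormone form of vitamin D, for the last 24 hours. The other 11 libraries came from cells given 2% ethanol as vehicle. The labels do not give the mouse, sex, diet or culture of a library, nor how the T cells were activated, so the tests rest on the variation among libraries, and some of it may be technical.

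When the receptor meets antigen, the kinase Lck, brought in by CD4, phosphorylates tyrosine motifs in the CD3 and zeta chains, and Zap70 binds there. Zap70 phosphorylates the scaffold Lat and the adaptor SLP-76 (Lcp2), on which phospholipase C gamma 1, Vav1, Gads (Grap2) and other proteins gather. From there calcium, protein kinase C theta with the Bcl10 and Malt1 complex, and the Ras activators Rasgrp1 and Sos1 carry the signal on. Phosphatases, ubiquitin ligases, diacylglycerol kinases and the receptors CD5 and CD6 limit it.

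Libraries held 3214171 to 20258430 counts, with a median of 7504710, and the 33 genes made up 0.833% to 0.986% of the counts of a library. T cell markers summed to 2216 to 2799 CPM in vehicle and 2447 to 3056 CPM in calcitriol libraries. They were Trac, Trbc1, Trbc2, Cd28, and Cd3e and Cd4, which are also among the 33 genes. From vehicle to calcitriol means Cd28 went from 810 to 995 CPM, and Trbc1, Trbc2 and Cd3e were also higher. Cd4 went from 755 to 690 CPM and Trac from 301 to 290 CPM. CPM here is the count scaled to the library total after TMM scaling, which corrects for differences in composition between libraries. The summed markers of B cells, natural killer cells, myeloid cells, gamma delta T cells, mast cells and red cells each stayed at or below 7.16 CPM in any library, and Ncr1, Fcgr1, Alas2 and Hba-a1 had no count. Markers of CD8 T cells, dendritic cells and platelets summed to at most 9.53, 6.73 and 8.91 CPM. Cd8a was at or below 0.0650 in either group mean, Cd8b1 at 5.98 CPM in the vehicle and 5.65 CPM in the calcitriol mean, and Ppbp had no count. Of these markers, Zbtb46 went from 4.68 to 2.59 CPM and Itga2b from 4.63 to 7.10 CPM between vehicle and calcitriol means, and the part of Cd8b1, Zbtb46 and Itga2b in the results was not tested. The 6 TH2 markers summed to 437 to 811 CPM in vehicle and 404 to 735 CPM in calcitriol libraries. The vehicle and calcitriol means were 333 and 203 CPM for Il13, 86.8 and 96.7 for Il4, 86.5 and 97.2 for Gata3, 44.6 and 62.5 for Il5, 40.6 and 38.6 for Ccr8, and 0.765 and 0.770 for Il1rl1, the receptor of interleukin 33. Vehicle replicates 1 and 2 and calcitriol replicates 1 and 2 stood apart from the other libraries in earlier results on these data, and for several genes below replicates 3 and 4 lay with them. The labels name no batch for these libraries. In bulk RNA a lower share of a cell type cannot be told apart from less RNA per cell.

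Calcitriol changed 16 of the 32 receptor signalling genes that passed the filter on low counts, and the changes were modest in size. By edgeR's quasi-likelihood test at an adjusted p of 0.05, 11 rose and 5 fell. Over all 11905 genes tested the same test called 31.5%, with 16.1% higher and 15.5% lower, and among genes of at least 5 CPM in 11 libraries it called 32.7%. The median log2 change was 0.05 over the 32 genes and -0.01 over all genes tested, and the changes ran from -0.31 for Cd5 to 0.69 for Ubash3b. Among called genes the median absolute log2 change was 0.33 for the receptor signalling genes and 0.35 for all genes. Over all genes tested, called or not, it was 0.146 for the 32 receptor signalling genes and 0.147 for all 11905. The second median includes genes of low counts, whose log2 changes vary more, and no median was taken over genes of like expression. Whether these genes changed more in size than others of their level was therefore not tested. Scaled by library size alone, 10 of the 32 rose and 7 fell, while over all genes the share of calls that were higher went from 50.9% to 31.4%. In 3 of the 32 genes, Ubash3a, Ubash3b and Ptpn6, the 2 groups of libraries did not overlap, against 4.36% of all genes tested. Within libraries 1 to 4 of both groups, 4 against 4, 8 of the 16 calls were kept, and without them 15 were kept. With libraries that resembled each other within a group summed, 6 against 6, 12 were kept. Over all 11905 genes tested, 1010 were higher and 796 lower within libraries 1 to 4, against 1911 and 1844 with all libraries. Without libraries 1 to 4 the numbers were 1879 and 1799, and with resembling libraries summed 1224 and 1073. Fewer calls in these fits were thus not particular to the receptor signalling genes.

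**Figure D1:**
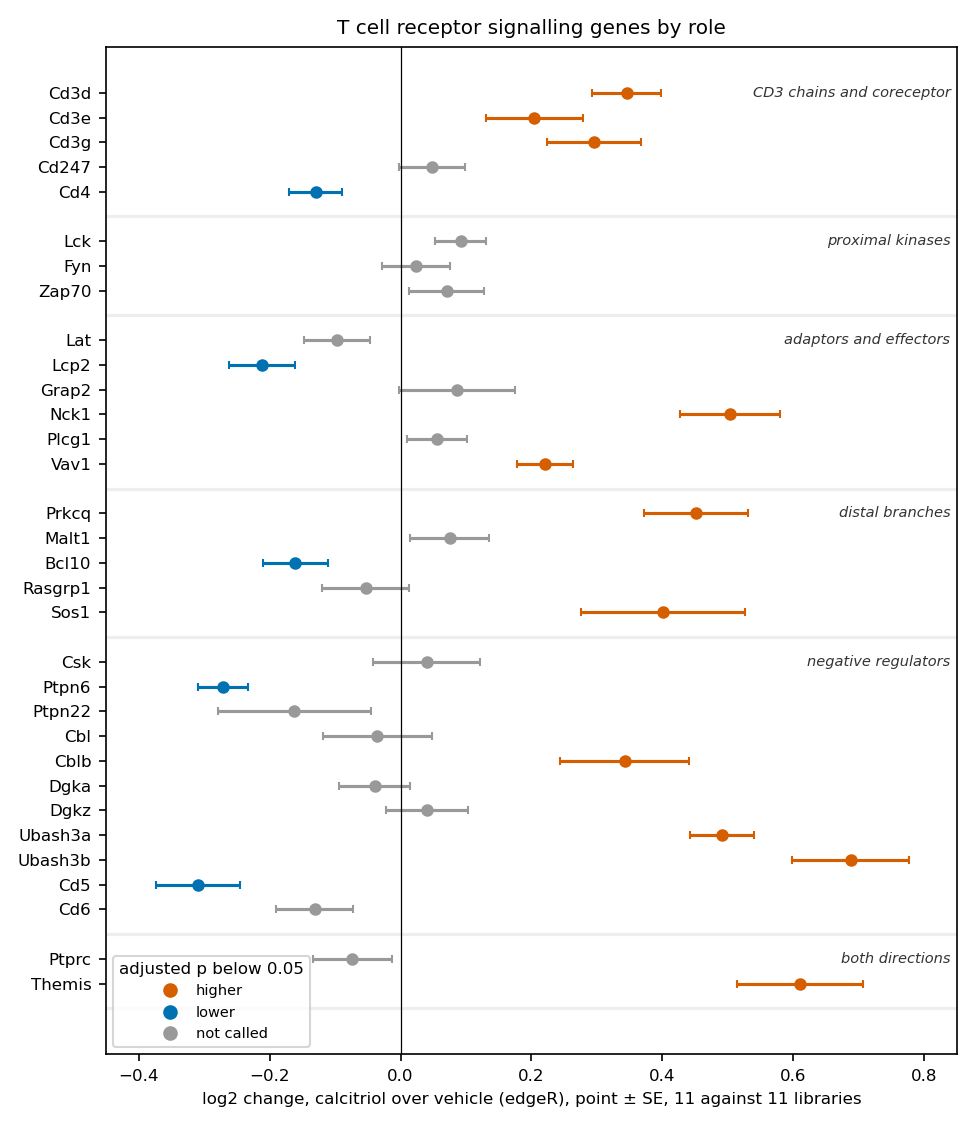
Log2 change of calcitriol over vehicle (horizontal axis, point ± SE from the edgeR fit of 11 against 11 libraries) for the 32 tested genes, grouped by role. Orange genes rose and blue genes fell at an adjusted p of 0.05, and both colours occur among the activating genes and among the inhibitors, with Ubash3b at 0.69 and Cd5 at -0.31 as the extremes.

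Activating and inhibitory genes each moved both ways. Of 20 genes whose products promote the signal, 19 were tested, 7 rose and 3 fell, with a median log2 change of 0.08. Of 11 inhibitors, 3 rose and 2 fell, with a median of -0.04. Ptprc and Themis act in both directions and were kept out of these classes. The share called was 52.6% for activating genes and 45.5% for inhibitors. The difference between the classes was not tested.

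Cd3d, Cd3e and Cd3g rose while the zeta chain gene did not pass the test. Cd3d (ENSMUSG00000032094, chromosome 9, 44981786 to 44987339, GRCm38) encodes CD3 delta, and its values ran from 290 to 382 CPM in vehicle libraries, with a median of 343, and from 369 to 480, with a median of 421, in calcitriol libraries. It lay above every vehicle library in 9 of 11 calcitriol libraries, and the log2 change was 0.35 ± 0.05 (SE, adjusted p = 7.49e-06), a rise of 27.0%. Cd3g (chromosome 9, 44969572 to 44980431), which encodes CD3 gamma, ran from 284 to 356 CPM in vehicle, with a median of 330, and from 297 to 454, with a median of 403, in calcitriol libraries. Its log2 change was 0.30 ± 0.07 (adjusted p = 0.00221). The Cd3g groups overlapped in 4 calcitriol libraries, replicates 1 to 4, which lay at 297 to 354 CPM, while replicates 5 to 11 lay at 402 to 454 CPM. Without libraries 1 to 4 of both groups the Cd3g change was 0.43 (adjusted p = 9.45e-07), and within those libraries it was 0.02 (adjusted p = 0.913).

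Cd3e, the CD3 epsilon gene, ran from 28.9 to 39.5 CPM in vehicle, with a median of 31.9, and from 28.3 to 45.8, with a median of 39.9, in calcitriol libraries. Its log2 change of 0.20 ± 0.07 passed the test (adjusted p = 0.0353), but the groups overlapped widely. It no longer passed in 10 of the 22 fits that each omitted a library, where the omitted library was calcitriol replicate 5, 6, 8, 9, 10 or 11 or vehicle replicate 1, 3, 6 or 7 (adjusted p up to 0.0718), nor with scaling by library size alone (0.189), resembling libraries summed (0.0965) or no low-count filter (0.0518). The Cd3e change was 0.036 within libraries 1 to 4 of both groups (adjusted p = 0.874), and without them 0.28 (adjusted p = 0.00318). The Cd3e level itself is uncertain: a same-strand gene model, Gm48720, lies over it and held 662 counts against 6686 for Cd3e, and how reads that touch both were counted is not given in the sources used here. Cd247, the zeta chain that holds most of the tyrosine motifs, had a mean of 235 ± 15.6 CPM with vehicle and 243 ± 21.5 CPM with calcitriol (SD, n = 11), a log2 change of 0.05 with a 95% interval of -0.05 to 0.15. The coreceptor gene Cd4 (chromosome 6, 124864692 to 124888221) ran from 717 to 825 CPM in vehicle and from 636 to 782 CPM in calcitriol libraries, and 8 of 11 calcitriol libraries lay below every vehicle library. It fell by 8.61% (log2 change -0.13 ± 0.04, adjusted p = 0.0153), and the call was lost without replicates 1 and 2 of both groups (adjusted p = 0.0588), within libraries 1 to 4 (0.323), with resembling libraries summed (0.136) and with no low-count filter (0.0669).

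The balance between CD3 chains was compared within each library, as the log2 ratio of the counts of 2 genes, which does not depend on how libraries are scaled. These 6 pairs were chosen after the values above had been seen. Cd3d rose against Cd247, from a log2 ratio of 0.50 ± 0.08 to 0.80 ± 0.10 (SD, n = 11), a difference of 0.30 ± 0.04 (SE, permutation test, adjusted p = 0.00024). Cd3g rose against Cd247 by 0.24 ± 0.05 (permutation test, adjusted p = 0.00024). Cd3d against Cd3g differed between the groups by 0.06, with a 95% interval of -0.04 to 0.17, and did not pass the test (permutation test, adjusted p = 0.267). In that pair calcitriol replicates 1 to 4 lay at 0.31 to 0.35, above all vehicle libraries, which ran up to 0.18, while calcitriol replicates 5 to 11 lay at -0.08 to 0.08. The pairs that hold Cd3e did not pass the test, with adjusted p of 0.0719, 0.0719 and 0.0905 (permutation tests). Single libraries moved these: Cd3d over Cd3e passed without calcitriol replicate 9 or vehicle replicate 3 (adjusted p = 0.0308 and 0.0265), Cd3e over Cd3g without vehicle replicate 3 (0.0265), and Cd3e over Cd247 without calcitriol replicate 4 or vehicle replicate 5 or 8 (down to 0.0223). Within libraries 1 to 4 the Cd3g over Cd247 difference was 0.04, and without them it was 0.36. An exact test of 4 against 4 libraries can give no p below 0.0286.

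Cd3d and Cd3g are transcribed away from each other from start sites 1355 bp apart, so the sequence before each start is shown, because these neighbours both rose. RefSeq windows of 300 bases, 250 before and 50 after a start site, on GRCm38.p6, were matched to 30 of the 33 genes and are given 5′ to 3′ on the strand of the gene. Capitals would mark the forms AGGTCA and GGTTCA of the vitamin D receptor half-site, on either strand, and neither window holds one. Other forms of the half-site, such as AGTTCA, were not searched for singly and are not marked. The Cd3d window is chr9:44981536-44981835 on the plus strand and the Cd3g window chr9:44980382-44980681 on the minus strand.
Cd3d: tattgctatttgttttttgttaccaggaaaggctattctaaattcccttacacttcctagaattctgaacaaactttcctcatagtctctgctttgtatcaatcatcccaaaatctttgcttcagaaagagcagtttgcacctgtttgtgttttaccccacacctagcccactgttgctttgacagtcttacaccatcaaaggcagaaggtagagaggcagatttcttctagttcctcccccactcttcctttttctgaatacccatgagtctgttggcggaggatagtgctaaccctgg
Cd3g: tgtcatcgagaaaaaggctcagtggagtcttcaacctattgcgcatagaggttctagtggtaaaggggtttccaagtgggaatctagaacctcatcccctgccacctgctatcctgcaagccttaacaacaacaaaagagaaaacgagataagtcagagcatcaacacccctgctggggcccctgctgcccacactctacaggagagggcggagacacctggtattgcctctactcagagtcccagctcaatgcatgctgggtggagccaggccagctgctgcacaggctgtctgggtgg

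The kinases next to the receptor showed no call. Lck, which starts the cascade, ran from 599 to 685 CPM in vehicle, with a median of 622, and from 612 to 725, with a median of 678, in calcitriol libraries (log2 change 0.09 ± 0.04, adjusted p = 0.0698). That change passed with DESeq2 (adjusted p = 0.0279), without libraries 1 to 4 of both groups (0.0159), and when any of calcitriol replicates 1 and 4 and vehicle replicates 3 and 6 was left out (down to 0.0345). Fyn, the related kinase, was at 67.0 ± 4.75 and 67.9 ± 5.72 CPM (SD, n = 11), and the 95% interval of its log2 change was -0.08 to 0.13. Zap70 was at 286 ± 26.1 and 301 ± 29.0 CPM, with an interval of -0.04 to 0.18. Txk, a Tec family kinase, did not pass the low-count filter, with 75 counts in the vehicle and 60 in the calcitriol group as a whole. The Lck to Fyn ratio differed between the groups by 0.07 on the log2 scale, with an interval of -0.03 to 0.18 (permutation test, adjusted p = 0.241).

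Among adaptors and effectors Nck1 and Vav1 rose and Lcp2 fell. Nck1, an SH2 and SH3 adaptor that binds the CD3 epsilon tail, ran from 19.0 to 27.8 CPM in vehicle, with a median of 23.5, and from 27.3 to 41.0, with a median of 33.4, in calcitriol libraries. In 10 of 11 calcitriol libraries Nck1 lay above every vehicle library, and the log2 change of 0.50 ± 0.08 (adjusted p = 8.21e-06) is a rise of 41.7%. Over the 34 alternative fits the Nck1 change ran from 0.43 to 0.90, and it passed in each. Vav1, the exchange factor that activates Rac, ran from 191 to 236 CPM in vehicle, with a median of 208, and from 212 to 262, with a median of 247, in calcitriol libraries, again with 10 of 11 above every vehicle library. Its log2 change was 0.22 ± 0.04 (adjusted p = 0.000218). It was 0.15 within libraries 1 to 4 (adjusted p = 0.245), 0.12 within replicates 1 and 2 (0.415) and 0.26 without libraries 1 to 4 (0.000135). Lcp2, the scaffold SLP-76, ran from 233 to 278 CPM in vehicle, with a median of 264, and from 189 to 244, with a median of 231, in calcitriol libraries. It fell by 13.6% (log2 change -0.21 ± 0.05, adjusted p = 0.00194), and 6 of 11 calcitriol libraries lay below every vehicle library. The scaffold Lat, the adaptor Grap2 and the phospholipase Plcg1 did not pass, with log2 changes of -0.10, 0.09 and 0.06. Lat passed without libraries 1 to 4 of both groups (-0.14, adjusted p = 0.0399) and with scaling by library size alone (-0.17, adjusted p = 0.0123). Grap2 was lowest in replicates 1 and 2 of each group, at 123 and 118 CPM in vehicle and 132 and 139 CPM in calcitriol libraries.

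Vav1, which rose, and Lcp2, which fell, both hold the half-site AGGTCA in their windows, and these are shown for that reason with the half-site in capitals. Its first base lies at -122 in Vav1 and -200 in Lcp2, counted from the start site, on the strand of the gene in both. The windows are chr17:57278850-57279149 and chr11:34046678-34046977, both on the plus strand. Both also hold AGTTCA, which was not among the forms searched for singly and is not in capitals.
Vav1: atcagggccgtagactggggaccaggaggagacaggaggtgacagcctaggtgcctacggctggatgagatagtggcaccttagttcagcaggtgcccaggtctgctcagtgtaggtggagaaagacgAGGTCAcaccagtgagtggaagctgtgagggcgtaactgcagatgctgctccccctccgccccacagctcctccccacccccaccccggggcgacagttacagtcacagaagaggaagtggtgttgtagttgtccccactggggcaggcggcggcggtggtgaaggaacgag
Lcp2: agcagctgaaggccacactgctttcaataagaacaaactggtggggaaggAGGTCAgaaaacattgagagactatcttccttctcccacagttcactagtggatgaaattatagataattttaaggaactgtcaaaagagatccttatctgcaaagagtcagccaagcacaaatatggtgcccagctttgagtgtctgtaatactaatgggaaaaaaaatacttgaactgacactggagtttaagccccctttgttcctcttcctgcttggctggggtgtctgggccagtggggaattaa
AGGTCA was found in 4 of the 30 windows, those of Dgka, Grap2, Lcp2 and Vav1, and in 16.3% of all 32851 RefSeq windows of that length. GGTTCA was found in 2, those of Cd3e and Sos1, against 10.4% of all windows. The DR3 vitamin D response element, a direct repeat that is built of half-sites like these, was found in 0 of the 30 and in 0.256% of all windows. Of other motifs searched on both strands, the ETS-type CCGGAAG was found in 1 of the 30 (8.86% of all), the AP-1 motif TGACTCA in 0 (5.20%) and the Runx motif TGTGGT in 3 (16.8%). The start sites used for Grap2, Dgkz, Ubash3b and Bcl10 lay 50889, 12301, 3635 and 1458 bp from the annotated start of the gene. The last 30 bases of the window were found in a transcript of the gene for 27 of the 30, but not for Cd3e, Dgka and Plcg1. A match describes letters in this window and is not a measured site.

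In the branches below the adaptors Prkcq and Sos1 rose and Bcl10 fell. Prkcq, protein kinase C theta (chromosome 2, 11172108 to 11301222), ran from 131 to 157 CPM in vehicle, with a median of 147, and from 144 to 266, with a median of 208, in calcitriol libraries. Its log2 change was 0.45 ± 0.08 (adjusted p = 5.87e-05). The rise was unequal between libraries: calcitriol replicates 1 to 4 lay at 144 to 168 CPM, beside 148 to 157 in vehicle replicates 1 to 4, whereas calcitriol replicates 5 to 11 lay at 203 to 266 CPM, beside 131 to 148 in vehicle replicates 5 to 11. The log2 change was 0.65 (adjusted p = 7.03e-09) without libraries 1 to 4 of both groups and 0.05 (adjusted p = 0.734) within them, a split chosen after these values were seen. Within replicates 1 and 2 alone it was -0.041. The difference between these sets of libraries was not tested.

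Sos1, an exchange factor for Ras, was low, at 5.95 to 12.6 CPM in vehicle and 9.23 to 17.5 CPM in calcitriol libraries, and 3 of 11 calcitriol libraries lay above every vehicle library. The log2 change of 0.40 ± 0.12 (adjusted p = 0.0147) did not pass with resembling libraries summed (adjusted p = 0.0819), within libraries 1 to 4 (0.0739) or within replicates 1 and 2 (0.3005). Bcl10 ran from 47.6 to 59.6 CPM in vehicle and from 42.2 to 55.6 CPM in calcitriol libraries, and fell by 10.5% (log2 change -0.16 ± 0.05, adjusted p = 0.0149). That call was lost in 6 alternatives: without and within replicates 1 and 2 (adjusted p = 0.0646 and 0.216), without and within libraries 1 to 4 (0.0633 and 0.216), with resembling libraries summed (0.101) and with no low-count filter (0.0823). Malt1, the protease that works with Bcl10, was at 999 ± 117 and 1053 ± 87.6 CPM (SD, n = 11) and did not pass. Rasgrp1, the diacylglycerol-dependent Ras activator, had a log2 change of -0.05 over all libraries. It was 0.28 (adjusted p = 0.0170) within libraries 1 to 4 and -0.23 (adjusted p = 0.00222) without them.

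**Figure D2:**
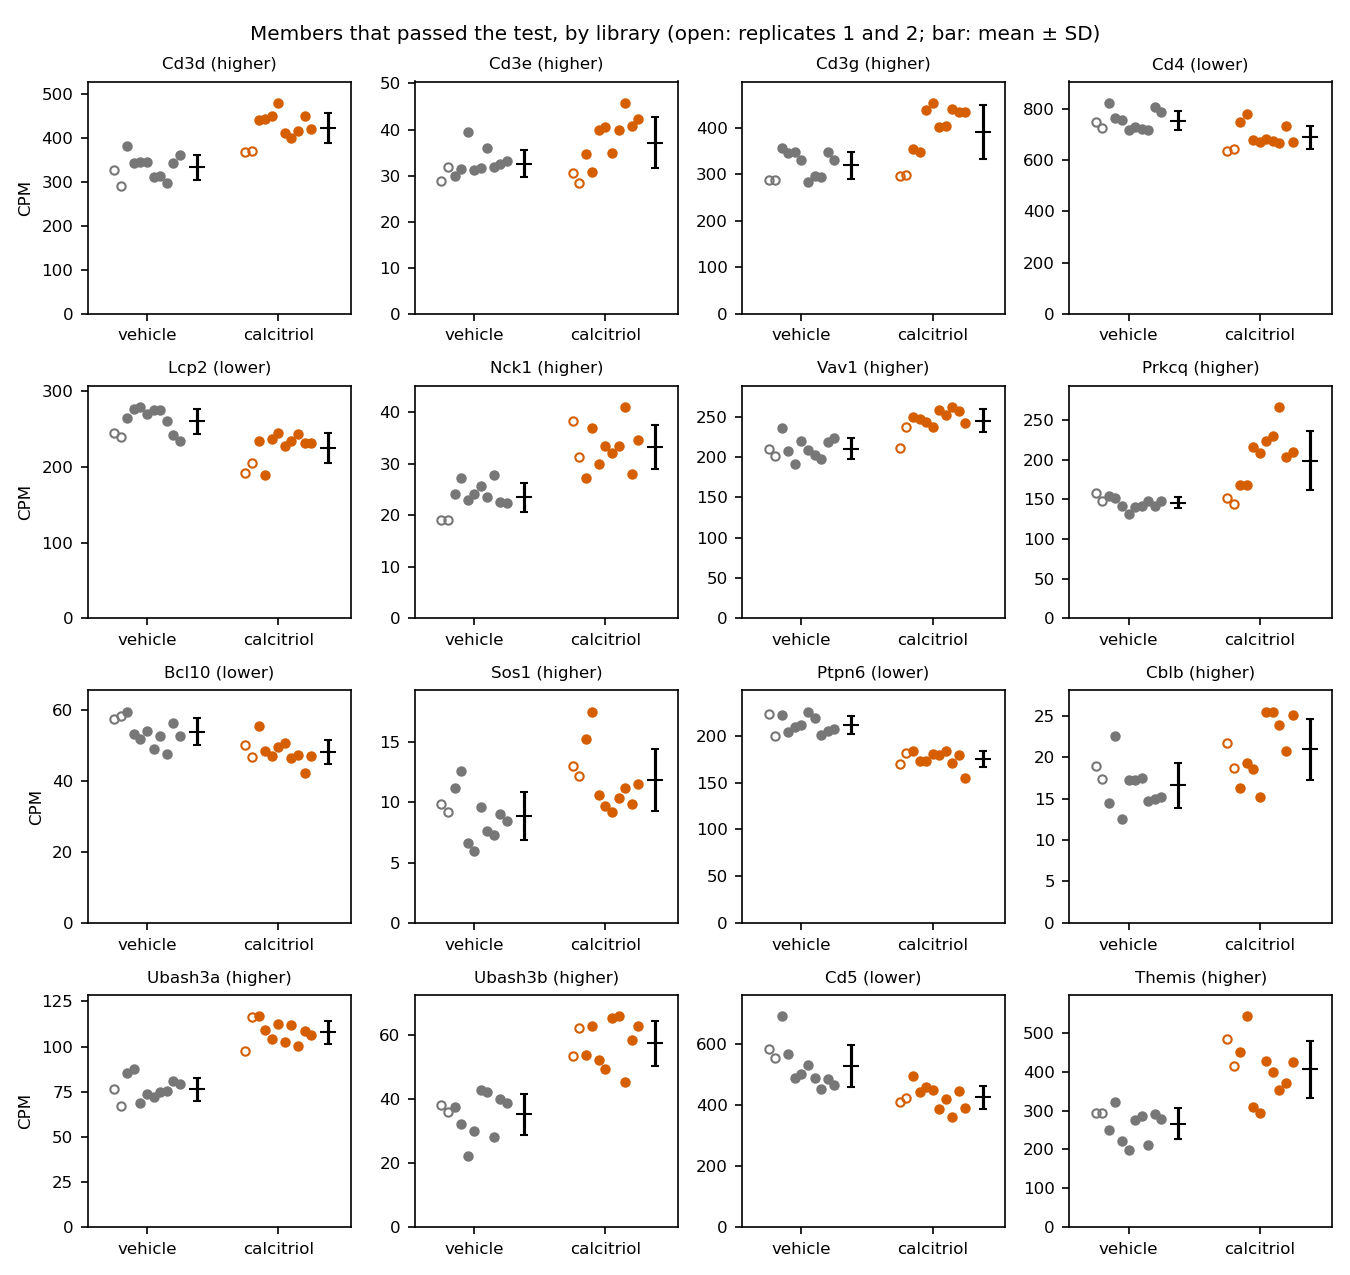
CPM (vertical axis, from 0) of the 16 genes that passed the test, 1 point per library, 11 per group, with the mean ± SD beside each group. Open points are replicates 1 and 2, and the groups do not overlap for Ubash3a, Ubash3b and Ptpn6, while calcitriol replicates 1 to 4 lie near the vehicle libraries for Cd3g and Prkcq.

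Both STS genes, whose phosphatase products suppress receptor signalling, rose, with the smallest adjusted p of the inhibitors. Ubash3a (ENSMUSG00000042345, chromosome 17, 31207873 to 31246892), also called STS-2, ran from 66.9 to 87.7 CPM in vehicle, with a median of 75.3, and from 97.5 to 117, with a median of 109, in calcitriol libraries. Ubash3b (ENSMUSG00000032020, chromosome 9, 41011098 to 41161697), STS-1, the more active phosphatase of the pair, ran from 22.2 to 42.9 CPM in vehicle, with a median of 37.6, and from 45.4 to 65.9, with a median of 58.3, in calcitriol libraries. For both genes the lowest calcitriol library exceeded the highest vehicle library. The log2 changes were 0.49 ± 0.05 for Ubash3a (adjusted p = 6.53e-09), a rise of 40.6%, and 0.69 ± 0.09 for Ubash3b (adjusted p = 7.26e-07), a rise of 61.1%. Both changes were of like size within libraries 1 to 4, at 0.47 and 0.69, and without them, at 0.50 and 0.68. The ratio of Ubash3a to Ubash3b differed between the groups by -0.22 on the log2 scale, with a 95% interval of -0.41 to -0.02, and did not pass after adjustment over the 5 paralogue pairs (permutation test, p = 0.0397, adjusted p = 0.0662). It passed when any of vehicle replicates 2 and 7 and calcitriol replicates 3 and 6 was left out (adjusted p down to 0.0383).

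Ptpn6, which encodes the phosphatase SHP-1, fell in all calcitriol libraries. It ran from 200.4 to 226 CPM in vehicle, with a median of 210.1, and from 155 to 184, with a median of 179, in calcitriol libraries, so the highest calcitriol library lay below the lowest vehicle library. The log2 change was -0.27 ± 0.04 (adjusted p = 2.67e-06), a fall of 17.1% in a gene whose libraries varied little, with a coefficient of variation of 4.41% in vehicle libraries. Cd5, the inhibitory scavenger-type receptor, ran from 454 to 691 CPM in vehicle, with a median of 501, and from 362 to 496, with a median of 422, in calcitriol libraries. It fell by 19.3% (log2 change -0.31 ± 0.06, adjusted p = 0.000395), with 9 of 11 calcitriol libraries below every vehicle library. Vehicle replicates 1 to 4 lay at 554 to 691 CPM, above the 454 to 530 CPM of vehicle replicates 5 to 11. Calcitriol replicates 1 to 4 lay at 410 to 496 CPM and replicates 5 to 11 at 362 to 458 CPM. Over the 34 alternative fits the Cd5 change ran from -0.45 to -0.22, and it passed in each. Cd6, its neighbour on chromosome 19 and paralogue, was at 441 ± 33.4 and 402 ± 47.2 CPM (SD, n = 11) and did not pass (log2 change -0.13, adjusted p = 0.0916), except without calcitriol replicate 3 or 6 (adjusted p down to 0.0367), within replicates 1 and 2, and with scaling by library size alone. Cd5 fell against Cd6 within libraries: the log2 ratio went from 0.25 ± 0.13 to 0.09 ± 0.11, a difference of -0.17 ± 0.05 (SE, permutation test, adjusted p = 0.0220). With resembling libraries summed that difference was -0.16 and did not pass (exact permutation test, adjusted p = 0.135).

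The ubiquitin ligases Cbl and Cblb had different results. Cblb, which sets the need for costimulation, ran from 12.5 to 22.5 CPM in vehicle and from 15.1 to 25.5 CPM in calcitriol libraries, and rose with a log2 change of 0.34 ± 0.10 (adjusted p = 0.00876). In 4 of 11 calcitriol libraries it lay above every vehicle library. Cbl was at 36.6 ± 6.59 and 35.9 ± 3.23 CPM (SD, n = 11), a log2 change of -0.04 with an interval of -0.20 to 0.13. The ratio of Cbl to Cblb differed by -0.34, with a 95% interval of -0.62 to -0.06, and missed the threshold after adjustment (permutation test, p = 0.0281, adjusted p = 0.0662). It passed without replicates 1 and 2 of both groups (-0.45, exact permutation test, adjusted p = 0.0398), without libraries 1 to 4 (-0.69, adjusted p = 0.00583), and when any of vehicle replicates 2 and 4 and calcitriol replicates 3 and 6 was left out (adjusted p down to 0.0202). The ratio differed the other way within libraries 1 to 4, by 0.27 (exact permutation test, adjusted p = 0.286). Within libraries 1 to 4 Cbl changed by 0.34 (adjusted p = 0.0249) and Cblb by 0.05 (adjusted p = 0.863), against -0.22 and 0.50 without them.

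The kinases that remove diacylglycerol, Dgka and Dgkz, did not pass, with log2 changes of -0.04 and 0.04 and intervals of -0.15 to 0.07 and -0.08 to 0.16. Their ratio differed by -0.08, with an interval of -0.21 to 0.05 (permutation test, adjusted p = 0.251). Csk, the kinase that holds Lck inactive, was at 87.9 ± 11.7 and 90.3 ± 13.6 CPM (SD, n = 11). The phosphatase gene Ptpn22 was at 151 ± 38.8 and 135 ± 20.5 CPM, and its vehicle replicates 1 to 4 lay at 177 to 224 CPM, above the 110 to 134 CPM of the other vehicle libraries. Its log2 change of -0.16 (adjusted p = 0.321) was -0.36 within libraries 1 to 4 (adjusted p = 0.0238) and -0.0028 without them.

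**Figure D3:**
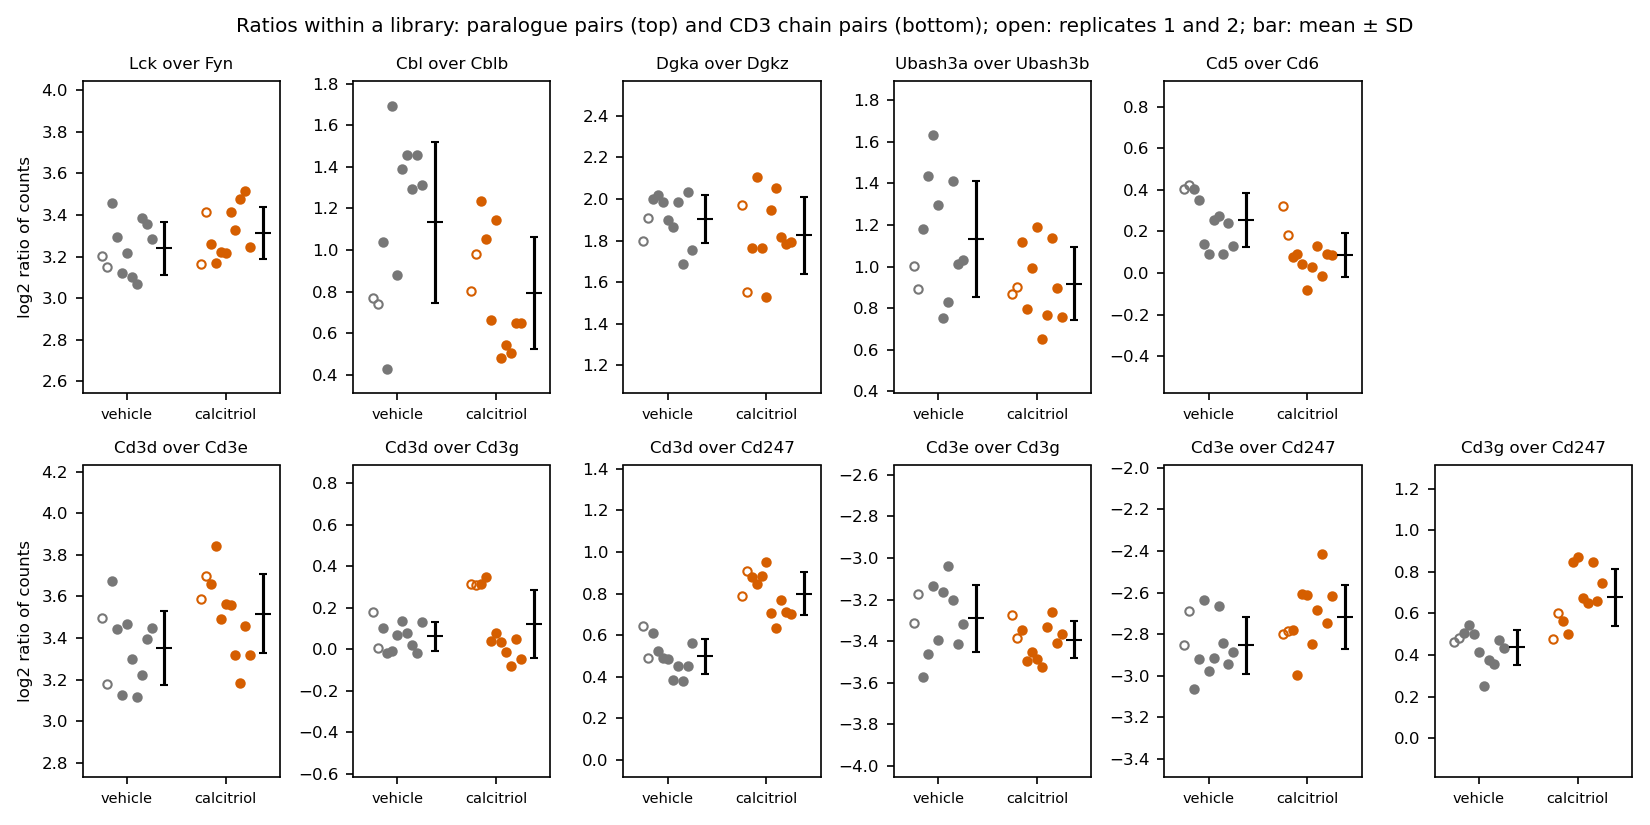
Log2 ratio of the counts of 2 genes within each library (vertical axes, each panel spanning the same range) for 5 paralogue pairs and 6 CD3 chain pairs, 1 point per library, with the mean ± SD. Open points are replicates 1 and 2. Cd3d over Cd247 moves from 0.50 to 0.80 and Cd5 over Cd6 from 0.25 to 0.09.

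Themis rose and Ptprc did not pass. Themis (chromosome 10, 28668360 to 28883818), a Grb2-binding protein that tunes receptor signals through SHP-1, ran from 199 to 323 CPM in vehicle, with a median of 279, and from 293 to 542, with a median of 415, in calcitriol libraries. In 9 of 11 calcitriol libraries it lay above every vehicle library, and its log2 change of 0.61 ± 0.10 (adjusted p = 2.12e-05) is a rise of 52.7%. It was 0.71 within libraries 1 to 4 and 0.55 without them. Ptprc, the phosphatase CD45 that both activates and restrains Lck, was at 1545 ± 174 and 1467 ± 134 CPM (SD, n = 11), a log2 change of -0.07 (adjusted p = 0.388). Within replicates 1 and 2 it was -0.39 (adjusted p = 1.38e-05), and without them -0.0081.

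Levels differed far more between these genes than between the groups. Per kb of annotated exon, Lck was the highest in vehicle libraries at 216 ± 10.2 CPM per kb (SD, n = 11). Cd4 and Cd3d followed at 187 ± 9.35 and 183 ± 15.4 CPM per kb, a difference within their spread, as was that between Cd5, Lat, Cd3g and Zap70 at 107, 107, 97.6 and 95.7 CPM per kb. Of the CD3 chains Cd247 was at 44.2 ± 2.93 and Cd3e at 7.98 ± 0.718 CPM per kb, the latter with the uncertainty given above. The inhibitors spanned from 107 CPM per kb for Cd5 to 1.59 for Cblb, and the lowest of the 33 were Sos1 at 0.838 and Txk at 0.0731 CPM per kb. Lengths are those of all annotated exons together, so a gene with long minor isoforms has its level understated.

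**Figure D4:**
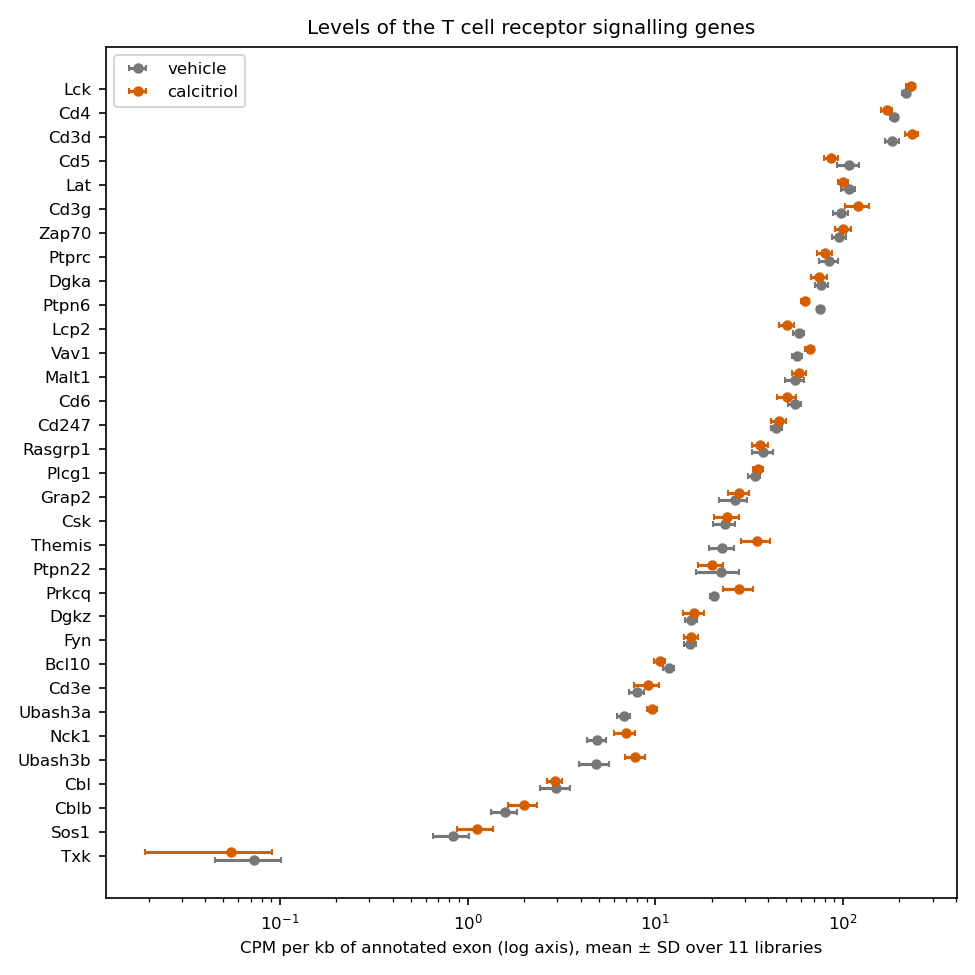
CPM per kb of annotated exon (log axis) of the 33 genes, as mean ± SD over 11 vehicle (grey) and 11 calcitriol (orange) libraries, ordered by the vehicle level. Levels run from 0.0731 for Txk to 216 for Lck in vehicle libraries, and the shift between the groups is small beside that range.

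Of 68 other genes of the pathway, 67 were tested, 20 rose and 16 fell, a share of 53.7% called against 31.5% of all genes. Among all genes of at least 5 CPM in 11 libraries the share was 32.7%. The list was chosen with earlier results of these data known, and whether that raised its share was not tested. The receptor constant region genes Trac, Trbc1 and Trbc2 did not pass, with log2 changes of -0.05, 0.09 and 0.10. Among those that fell with small p were Tagap, Fyb, Wipf1 and Vav3. Tagap, a GTPase-activating protein of T cells, went from 102 ± 18.4 to 39.2 ± 7.30 CPM (SD, n = 11), and the groups did not overlap (log2 change -1.38 ± 0.10, adjusted p = 1.10e-10). The SLP-76 partner Fyb changed by -0.61 ± 0.09, the WASP-binding Wipf1 by -0.55 ± 0.08 and the exchange factor Vav3 by -0.56 ± 0.09. The 5 that rose with the smallest p were Rasal3, Ptprj, Pag1, Skap1 and Dok2. Rasal3, a Ras GTPase-activating protein, rose from 363 ± 44.0 to 552 ± 69.8 CPM (0.60 ± 0.07, adjusted p = 1.48e-07). The receptor phosphatase Ptprj rose by 0.60 ± 0.07, the Csk-binding membrane adaptor Pag1 by 0.55 ± 0.07 and the adaptor Dok2 by 0.41 ± 0.05, each with no overlap between the groups. Skap1, an adaptor that links the receptor to integrins, rose by 0.49 ± 0.06. The kinase gene Tec did not pass (0.32 ± 0.20, adjusted p = 0.250).

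**Figure D5:**
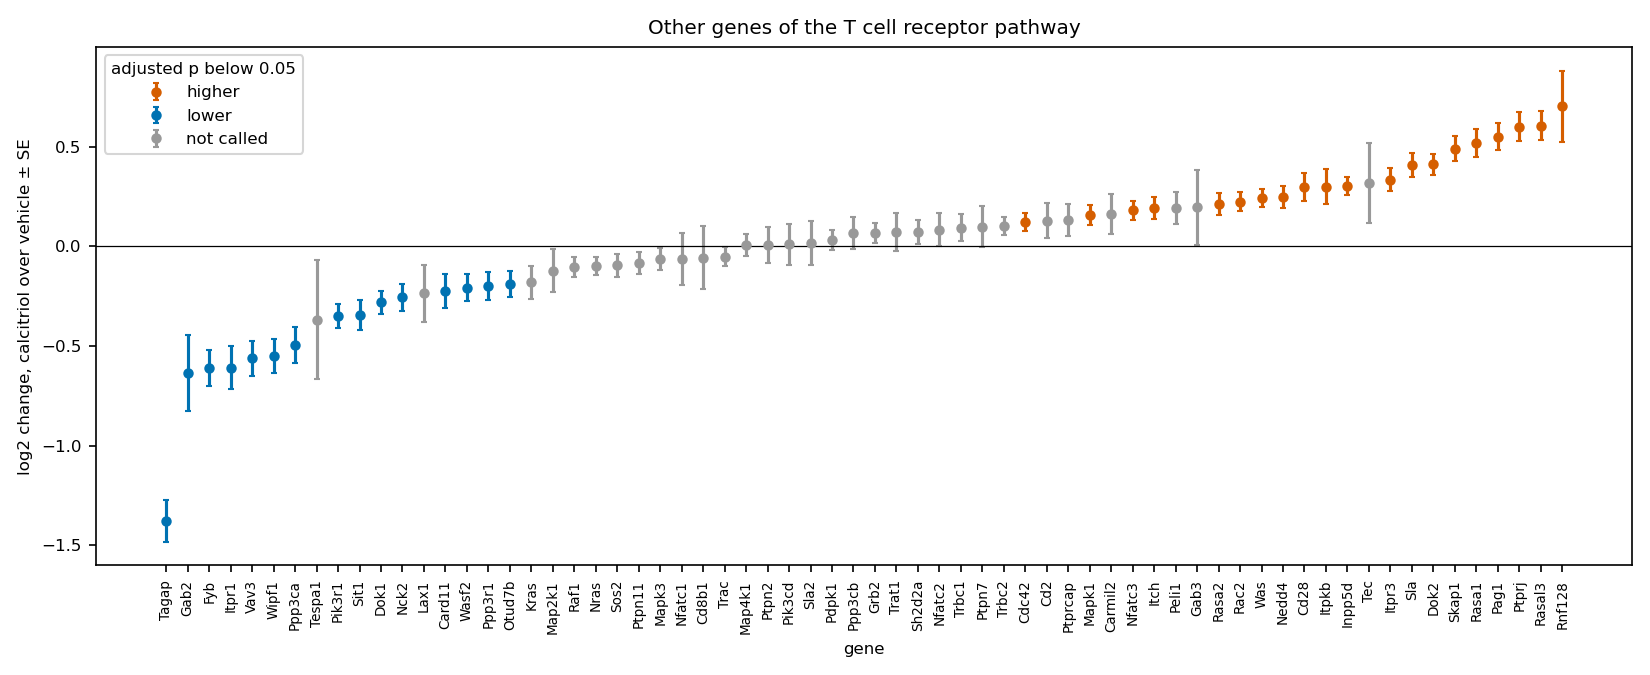
Log2 change of calcitriol over vehicle (vertical axis, point ± SE, 11 against 11 libraries) for other pathway genes tested, ordered by their change, with the gene not reported individually left out. Blue genes fell and the 20 orange genes rose, from -1.38 for Tagap to 0.70 for Rnf128, a ubiquitin ligase named after its value was seen. For Rnf128 (± 0.18, SE) all 11 calcitriol libraries lay above the vehicle median of 15.9 CPM. None lay above vehicle replicate 11, which was at 44.3 CPM.

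Reads of overlapping genes on the other strand cannot be told apart with certainty, since the strand setting of the counting is not given in the sources used here. Protein-coding genes overlap Cd247 (Pou2f1), Plcg1 (Zhx3) and Sos1 (Arhgef33) on the opposite strand, with counts of 8.46%, 6.00% and 2.60% of those of the named gene. A gene model of unknown coding status, Gm37520, lies opposite Prkcq with 5.73% of its counts.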

How the data were processed

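RNA was sequenced from 22 libraries of mouse TH2 cells after a stranded total RNA preparation, per the labels' protocols. The authors deposited raw counts per Ensembl gene. The build GRCm38 and the tools HTSeq 0.13.5 and STAR 2.7.10a are named, per the submitters' processing notes, with roles, strand setting and annotation release not given in the sources used here. Symbols, positions and exon lengths came from GENCODE release M21, on the same build. Replicate numbers follow accession order, and the labels pair no libraries.

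With filterByExpr, 11905 of 49671 genes were kept (edgeR 4.0.16, R 4.3.3). After TMM scaling, calcitriol was compared with vehicle, 11 against 11, with edgeR by a robust quasi-likelihood test with no covariate and Benjamini-Hochberg adjustment over all genes kept. Log2 ratios of 2 genes (0.5 added to each count) were tested by permutation, two-sided, with 100000 resamples, exact where a group had fewer than 10 values, adjusted over 5 paralogue or 6 CD3 pairs. The fit was tested on simulated data. No pair of libraries within a group differed by as little as sampling noise (chi-square per degree of freedom 2.59 to 30.5 over 110 pairs). This check does not tell whether 2 libraries shared a mouse or a culture. Intervals are 95%.

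The gene lists, pairs, roles and naming rule (all members, then up to 5 other pathway genes in each direction by p) were chosen with earlier results of these data known. Alternatives were DESeq2 1.42.0, limma-voom (limma 3.58.1), other scaling and filters, non-robust dispersions, libraries left out, and summing resembling libraries (mutual best correlations within a group), which left 6 per group. In both groups the resembling libraries were neighbours in accession order: replicates 1 and 2, 3 and 4, 5 and 6, 7 and 8, and 10 and 11, with replicate 9 alone. The labels do not say what such neighbours share, and the tests of 11 against 11 treat them as independent. The split at libraries 1 to 4 and the CD3 pairs were added after the data were seen. Of the other pathway genes, 1 is in the counts but is not reported individually here.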

Additional observations from a re-analysis of the deposited data

How the results depend on the processing

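No paired analysis was possible because the labels give no replicate number. Of the 16 calls among the receptor signalling genes, 16 were kept with DESeq2, limma-voom, RLE scaling, the filter of at least 5 CPM in 11 libraries and non-robust dispersions, 15 with scaling by library size alone, 13 with no low-count filter, 14 without replicates 1 and 2 of both groups, 15 without libraries 1 to 4, and 12 with resembling libraries summed. With 1 library left out, 10 to 12 genes were higher and 5 to 6 lower, and the one call of the 16 that was lost was that of Cd3e. With no low-count filter, without replicates 1 and 2, and with resembling libraries summed, 3 genes were lower in place of 5, and 1 activating gene in place of 3. The unfiltered fit tests more genes, and the summed fit holds fewer samples. Within replicates 1 and 2, 2 against 2, 5 genes were higher (activating 2) and 4 inhibitors lower, with 12 other pathway genes higher in place of 20. Within libraries 1 to 4, 7 were higher (activating 3), 1 activating gene was lower, and 10 other pathway genes were higher and 9 lower. Over all genes tested, 967 were higher and 692 lower within replicates 1 and 2, and 1010 and 796 within libraries 1 to 4. These fits hold fewer samples, and any other cause was not tested. Among genes past the threshold in the reported or the alternative fit, log2 changes turned in sign for Cd3e (-0.026) and Prkcq (-0.041) within replicates 1 and 2 and for Rasgrp1 (0.28) and Cbl (0.34) within libraries 1 to 4. Sign changes past the threshold in neither fit occurred for Cd247, Fyn, Zap70, Lat, Plcg1, Malt1, Rasgrp1, Csk, Cbl, Dgka, Dgkz and Ptprc, at most 0.29 in size (Cbl within replicates 1 and 2).

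Of the pair ratios, Cbl over Cblb passed without replicates 1 and 2 (-0.45) and without libraries 1 to 4 (-0.69) and had the opposite sign within libraries 1 to 4 (0.27, not passing). Cd3e over Cd3g (-0.17) and Cd3e over Cd247 (0.19) passed without libraries 1 to 4. Within libraries 1 to 4 the calls of Cd5 over Cd6 (-0.23), Cd3d over Cd247 (0.29) and Cd3g over Cd247 (0.037) were lost, and that of Cd5 over Cd6 also with resembling libraries summed (-0.16). In these 4 against 4 libraries the groups did not overlap for Cd5 over Cd6 and Cd3d over Cd247, but did for Cd3g over Cd247. The first 2 thus had the smallest p the exact permutation test can give (0.0286), and adjustment over the pairs lifted it past the threshold. Their lost calls therefore cannot show that the difference was absent. With 1 library left out, Cbl over Cblb ran from -0.41 to -0.28, Ubash3a over Ubash3b from -0.26 to -0.17, Cd3e over Cd247 from 0.11 to 0.16, Cd3d over Cd3e from 0.13 to 0.20 and Cd3e over Cd3g from -0.13 to -0.079, each passing in some of these fits. An offset of 5 counts changed no call of a pair. The pair ratios were not tested within replicates 1 and 2. Low counts limit Sos1 and Txk most.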
